A study of Mus musculus with 6 samples.

Results

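T-box developmental factors are transcription factors that share a DNA-binding domain, the T-box, and act in dose-sensitive ways in the embryo. Mutations of family members cause heart, limb, craniofacial, vertebral and immune defects, and several members are silent in embryonic stem (ES) cells until mesoderm and its derivatives form. Promoters of such developmental regulators usually lie in CpG islands, which most cell types keep free of DNA methylation. The 10 genes examined here were Tbx1, Tbx15, Tbx18 and Tbx20 of the Tbx1 subfamily, Tbx2, Tbx3, Tbx4 and Tbx5 of the Tbx2 subfamily, Tbx6, and Tbx21 of the Tbr1 subfamily.

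Members were the cytosines that lay in these genes or within 5 kb on either side (mm10) and had at least 10 reads in all 6 libraries of the study. The rule found 269 of the 233019 cytosines that met the same minimum genome-wide. Every gene held at least 1 member, with 66 cytosines in Tbx5, 63 in Tbx2, 37 in Tbx3, 33 in Tbx1, 32 in Tbx4, 16 in Tbx6, 10 each in Tbx15 and Tbx21, and 1 each in Tbx18 and Tbx20. Tbx5 was chosen by the level of DKO replicate 3 at its promoter in these same files, so that value is a description without a test.

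The libraries came from reduced representation bisulfite sequencing (RRBS), in which the enzyme MspI cuts DNA at CCGG, so that CpG-dense fragments are read. The lines were androgenetic haploid ES cells (AG-haESCs), which derive from blastocysts with a paternal genome alone, on a C57BL/6 background and grown on feeder cells with 2i, a pair of kinase inhibitors. The 2 WT lines were wild type (passages 31 and 18). The 3 DKO lines (passages 32, 31 and 29) were labelled as carrying deletions of both the H19 DMR and the IG-DMR, which are imprinting control regions on chromosomes 7 and 12. The control was 1 library of round spermatids, haploid germ cells of the C57BL/6 testis, for which no age is given in the labels. Each line is 1 culture, and titles share the name OG3 between WT replicate 1 and DKO replicate 2, and the name AGH-2 between WT replicate 2 and DKO replicate 3. The labels do not say that lines of a group came from separate embryos, and every p-value below reflects the spread among these cultures alone.

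Read totals over cytosines lay between 197728785 and 255726544 in the lines and reached 293920118 in round spermatids. Member cytosines had median depths of 287 to 431 reads, and single values rested on 10 to 3834 reads. The labelled deletions could be checked only weakly. In the window 2 to 4 kb before H19, the DKO lines had 0 reads against 22 and 23 in the WT lines, but round spermatids also had 0. In the window 10 to 15 kb before Meg3, WT replicate 1 had 172 reads, WT replicate 2 and the 3 DKO lines had 0, and round spermatids had 1. A level is the percentage of methylated reads, summed over the cytosines of a region, and values of lines are given in replicate order. In a bulk library, a level between 0% and 100% cannot be divided into a share of methylated cells and uneven amplification of few fragments. Mean levels over all common cytosines were 8.08% and 4.12% in the WT lines, 5.11%, 7.24% and 5.06% in the DKO lines, and 22.4% in round spermatids.

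The T-box genes were sparsely methylated in all lines. The mean level over the 269 cytosines was 6.13% and 2.36% in the WT lines, 4.92%, 6.48% and 3.41% in the DKO lines, and 6.86% in round spermatids. The mean of the lines was 4.66% ± 1.76 (SD, n = 5). Of the cytosines, 158 (58.7%) stayed below 1% in every line, against 66.1% of all cytosines. WT replicate 2, the line of lowest passage, had the lowest mean here as over all cytosines, and DKO replicate 3 the next lowest in both. Round spermatids were just above the highest line at the T-box genes, whereas over all cytosines they were far above every line.

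Cytosines were assigned to a promoter window, the remaining gene body, or the flank on the side of lower or higher coordinates, called below and above. The promoter window covered 1 kb outside the gene and 0.5 kb inside it, at the 5′ end where the strand was known. For Tbx2, Tbx3 and Tbx5 it was the gene end with more measured cytosines. Tbx15, also without a known strand, had none in the window of either end, and the end of lower coordinate was taken. Of 22 regions with a member, 17 had at least 3 cytosines, namely 6 promoter windows, 7 bodies and 4 flanks. In 5 of the 17 the level was below 1% in every line, and in 6 it reached 10% in at least 1 line. The lines did not share these higher levels evenly, as the plot of region levels by library shows.

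**Figure D1:**
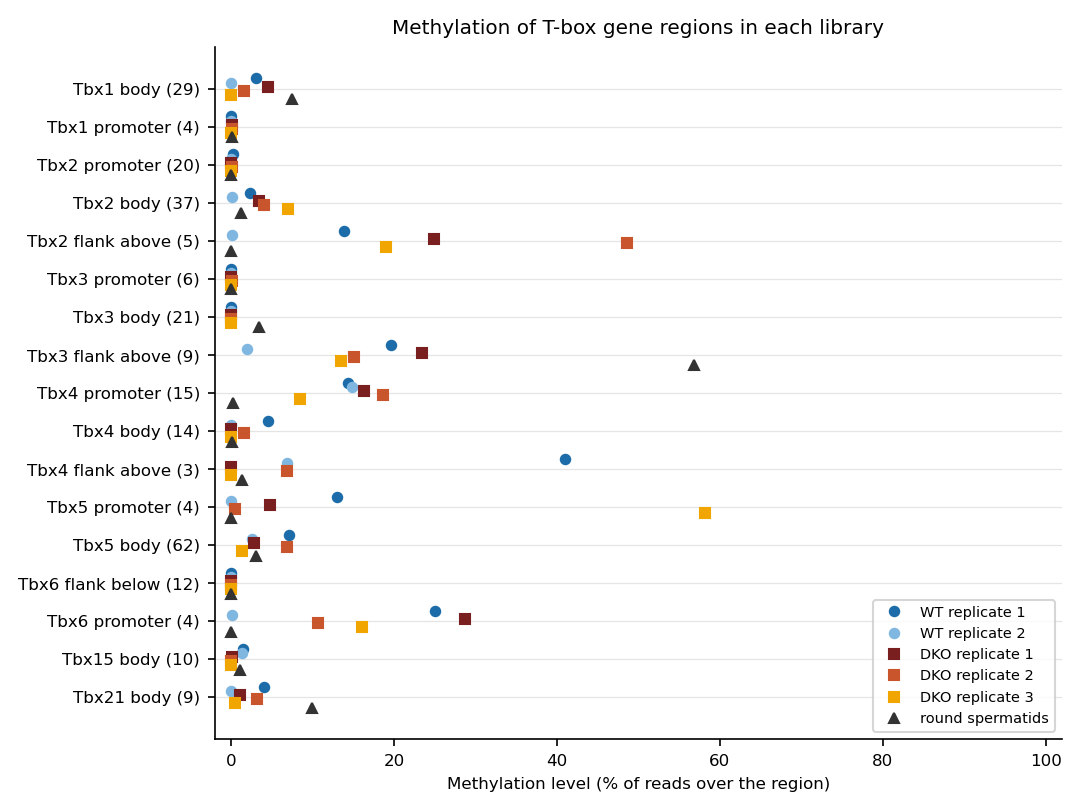
Methylation level of the 17 T-box regions with at least 3 cytosines, as the percentage of methylated reads on the horizontal axis, with the number of cytosines in parentheses. Each point is 1 library, with circles for WT lines, squares for DKO lines and triangles for round spermatids. DKO replicate 3 lies at 58.2% in the Tbx5 promoter window and round spermatids at 56.8% in the flank above Tbx3, both far to the right of the other points in their rows.

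Tbx5 drives formation of the heart and the forelimb, and its loss of function causes Holt-Oram syndrome. The gene lies at chr5:119796514-119885220 (mm10). Its promoter window held 4 measured cytosines, all within the gene and within 422 bp of its start. The gene table lists 7 transcripts for Tbx5 without their starts or strand, so the window marks an outer end of the record, and any start further inside falls in the body. The level of the window was 13.0% and 0% in the WT lines, 4.84%, 0.447% and 58.2% in the DKO lines, and 0% in round spermatids. The last value rested on 0 of 881 reads, which allows up to 0.341%, and the value of DKO replicate 1 rested on 62 reads. DKO replicate 3 was thus the highest library, 53.6 points above the mean of the other lines (4.57% ± 6.03, SD, n = 4). Members of the DKO group did not share the level, since DKO replicates 1 and 2 lay below WT replicate 1.

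Single cytosines carried the difference. At chr5:119796569, DKO replicate 3 had 100% methylation over 843 reads. WT replicate 1 had 3.05% over 197 reads, and WT replicate 2, DKO replicate 2 and round spermatids had 0% over 316, 421 and 398 reads. DKO replicate 1 had 0% over 16 reads, which allows up to 18.8%. At chr5:119796559, which lies 10 bp away, DKO replicate 3 was at 42.4% and WT replicate 1 at 32.5%, with 0% in the other libraries. At chr5:119796556, which lies 3 bp before that, DKO replicate 3 was at 0% over 354 reads. The fourth cytosine, at chr5:119796936, was at 0% in DKO replicate 3 and at 30.0% in WT replicate 1, 18.8% in DKO replicate 1 and 11.5% in DKO replicate 2, each over at most 40 reads. The window therefore did not hold a run of methylated cytosines in DKO replicate 3, but 1 fully and 1 partly methylated cytosine among unmethylated ones. When the 4 cytosines were weighted equally, the level in DKO replicate 3 was 35.6%, and its distance from the other lines was 29.5 points. Without the cytosine at 100%, an alternative chosen after seeing the data, the window stood at 29.01% in DKO replicate 3 and 17.5% in WT replicate 1. Taking cytosines from 5 reads upward brought 1 more into the window and left the distance at 53.2 points.

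The remaining 62 measured Tbx5 cytosines formed the body of the gene, where DKO replicate 3 was the lowest library by summed reads. The body level was 7.11% and 2.62% in the WT lines, 2.86%, 6.86% and 1.37% in the DKO lines, and 3.02% in round spermatids (95% Wilson interval 2.88% to 3.16%). With these cytosines weighted equally, DKO replicate 3 was at 3.51%, close to WT replicate 2 at 3.83% and above round spermatids at 2.78%. Within the body, DKO replicate 3 had 3 cytosines at least 25 points above every other line. They were chr5:119831981 at 100% over 18 reads, chr5:119842011 at 34.3% and chr5:119866763 at 39.2%. At chr5:119866768 it was also the highest line, at 41.1% against at most 21.7%. At some other cytosines of the body that other lines had methylated, DKO replicate 3 was at or close to 0%. At chr5:119837428, DKO replicate 1 was at 92.3% and WT replicate 1 at 43.1%, while DKO replicate 3 was at 0% over 27 reads. At chr5:119798100, DKO replicates 1 and 2 were at 75.3% and 63.9% and the other libraries below 1%. Over all 66 Tbx5 cytosines, the number at least 25 points above every other line was 4 in WT replicate 1, 1 in WT replicate 2, 1 in DKO replicate 1, 4 in DKO replicate 2 and 4 in DKO replicate 3. These were 6.06%, 1.52%, 1.52%, 6.06% and 6.06%, against 3.57%, 0.997%, 1.52%, 2.47% and 1.95% of all cytosines in the same lines. The count of DKO replicate 3 includes chr5:119796569 of the promoter window, which was chosen for its level, so its share is a description. The noncoding record Gm5563 (chr5:119805327-119831986) lies within the gene and holds 15 of the Tbx5 cytosines.

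**Figure D2:**
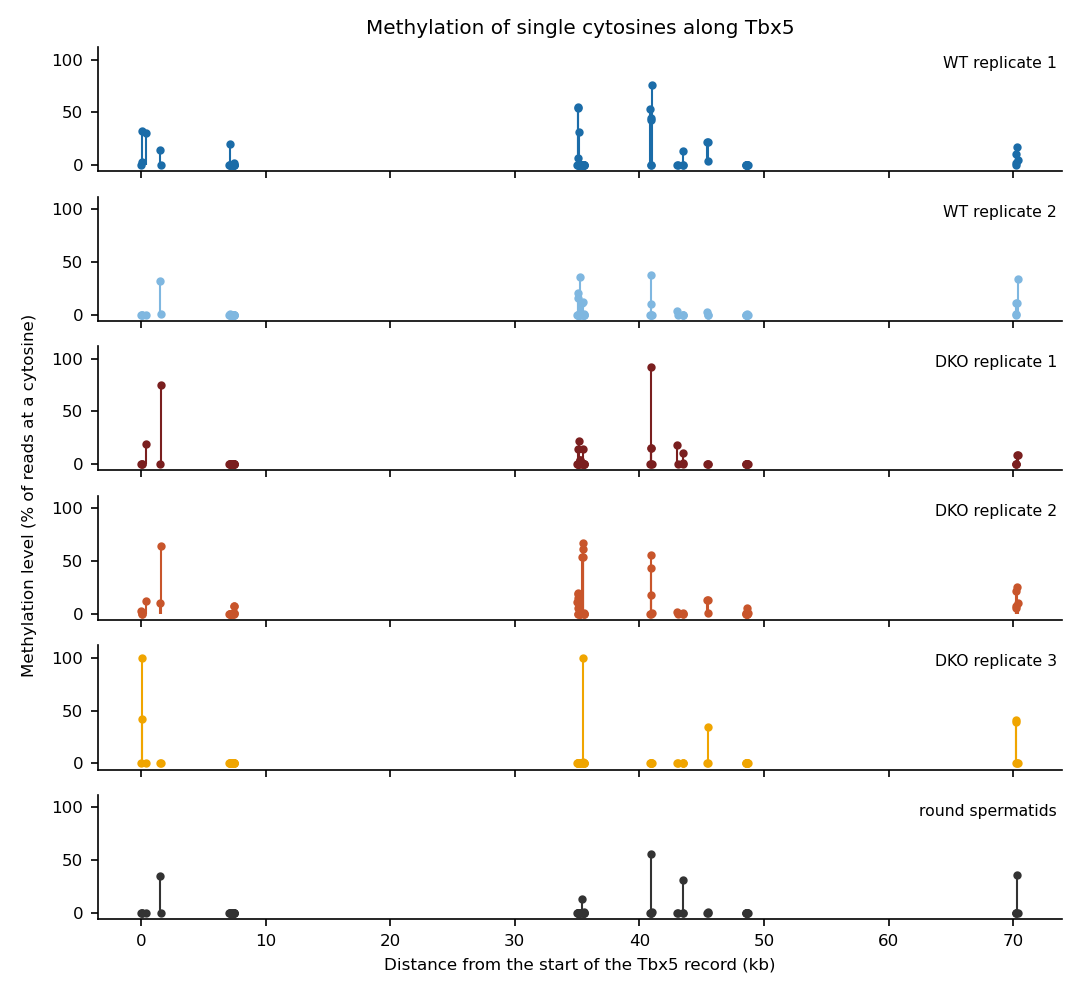
Methylation level of the 66 measured Tbx5 cytosines in each library, in percent of reads, by distance from the start of the gene record in kb. Each stem is 1 cytosine, and DKO replicate 3 reaches 100% near the start and again further inside, while it stays at 0% at the cytosine where DKO replicate 1 is at 92.3%.

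The neighbourhood of Tbx5 was then examined, over 1 Mb on each side without the gene and its flanks. This stretch held 469 measured cytosines and 47 gene records. Mean levels there were 11.2% and 5.404% in the WT lines, 8.61%, 9.71% and 8.41% in the DKO lines, and 30.8% in round spermatids. DKO replicate 3 was thus the fourth of the 5 lines. Of 47 regions with at least 3 cytosines around 26 genes, it stood at least 25 points above every other line in 0, against 0.425% of all regions. It was the highest line in 3 (6.38%, against 13.5% of all regions). These regions include the promoter window of Gm5563 and the flank below it, which lie within Tbx5. Some records also share cytosines, such as Gm27199 with Gm31976, and the promoter windows of Rita1 and Ddx54. High levels as such were not lacking in the neighbourhood, since the flank above Gm38554 (4 cytosines) was at 74.3% in DKO replicate 3 but at 75% in WT replicate 1. One of the 3 regions was the flank below Tbx3os1, an antisense RNA of Tbx3, at 19.9% against at most 11.7%. The others were the promoter window of Oas2, an interferon-induced antiviral enzyme, at 49.8% against at most 29.6%, and a flank of Oas3 that shares its cytosines.

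Single cytosines in which DKO replicate 3 stood apart did occur around Tbx5. Of the 469 neighbouring cytosines, 18 (3.84%) were at least 25 points above every other line in DKO replicate 3, against 1.95% of all cytosines in that line. The same count was 20 in WT replicate 1, 9 in WT replicate 2, 12 in DKO replicate 1 and 16 in DKO replicate 2 (4.26%, 1.92%, 2.56% and 3.41%, against 3.57%, 0.997%, 1.52% and 2.47% of all cytosines). All 5 lines were thus above their genome-wide share in this stretch. WT replicate 1 had the highest share here, while the excess over a line's own genome-wide share was largest in DKO replicate 3. The 18 cytosines of DKO replicate 3 fell into 11 sites. One, at chr5:119167817-119167921 and 629 kb before Tbx5, had 3 cytosines of which the highest was at 99.4%. Another was a single cytosine at chr5:120241561, 445 kb after the Tbx5 start, at 90.5%. Lhx5, a LIM homeobox factor of the developing brain, held a site of 3 cytosines between 29.7% and 47.8%. The remaining sites included single cytosines or pairs in Tpcn1, Iqcd and Oas2 and near AW549542.

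**Figure D3:**
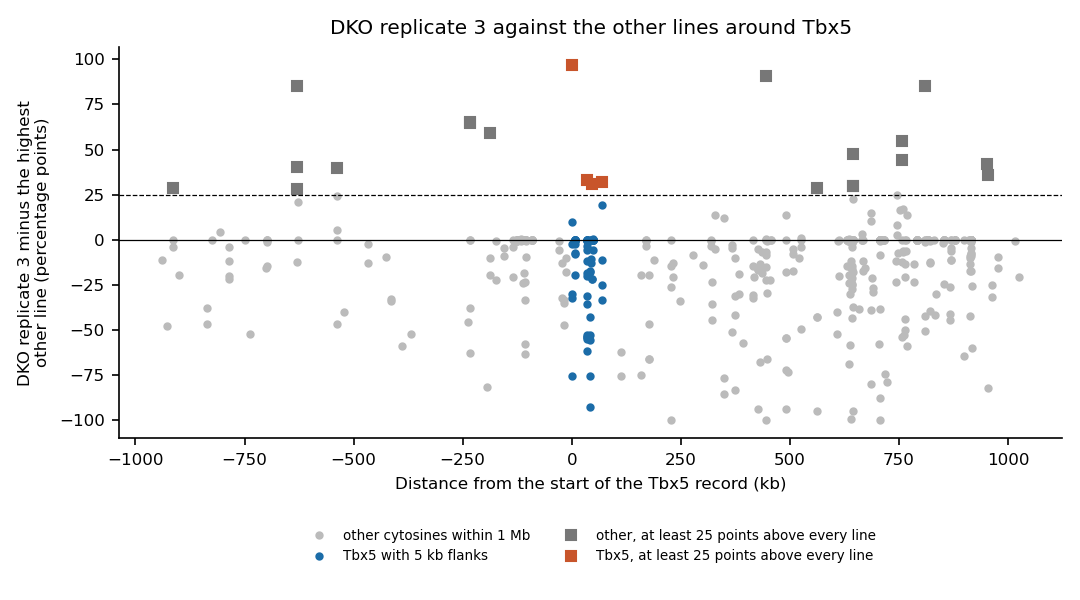
Level of DKO replicate 3 minus that of the highest other line, in percentage points, for each cytosine within 1 Mb of Tbx5, by distance from the start of the gene in kb. Squares above the dashed line at 25 points mark cytosines in which DKO replicate 3 stood apart, 4 in Tbx5 and 18 in the neighbourhood, and they are spread over the whole stretch.

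Tbx3, the closest T-box gene, lies 111.8 kb from Tbx5 on the same chromosome and patterns limb, mammary gland and cardiac conduction tissue. It also helps ES cells to renew themselves. It did not share the level of its neighbour. The Tbx3 promoter window (6 cytosines) was at 0% in WT replicates 1 and 2 and in DKO replicate 3, at 0.059% and 0.13% in DKO replicates 1 and 2, and at 0.068% in round spermatids. For DKO replicate 3 this was 0 of 1700 reads, which allows up to 0.176%. Its body (21 cytosines) did not exceed 0.043% in any line.

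Over the other 9 T-box genes, DKO replicate 3 was among the less methylated lines. The mean level of their 203 cytosines was 5.37% and 1.96% in the WT lines, 4.94%, 5.43% and 2.74% in the DKO lines, and 8.24% in round spermatids. DKO replicate 3 had 2 cytosines there at least 25 points above every other line, against 5 and 2 in the WT lines and 2 and 7 in the other DKO lines. The share was 0.985% in DKO replicate 3, against 1.95% of all its cytosines, and in the other lines it was 2.46%, 0.985%, 0.985% and 3.45%. It was the highest line in 2 of the 17 T-box regions (11.8%), the Tbx5 promoter window and the Tbx2 body, against 13.5% of all regions. The Tbx5 window was chosen for its level, so this share and the counts below that include it are a description. The Tbx5 window was 1 of 13 promoter windows in the genome (0.136% of 9549) in which DKO replicate 3 stood at least 25 points above every other line. The same count was 40 (0.419%) for WT replicate 1, 4 (0.0419%) for WT replicate 2, 6 (0.0628%) for DKO replicate 1 and 8 (0.0838%) for DKO replicate 2. Of the 6 T-box promoter windows, that of Tbx5 in DKO replicate 3 was the single case for any line. By this measure DKO replicate 3 stood apart in 0 of the 47 regions within 1 Mb and in 0 of the other 5 T-box promoter windows. With 0.425% of all regions and 0.136% of all windows meeting it, nothing is read from counts of 0 in such small sets.

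**Figure D4:**
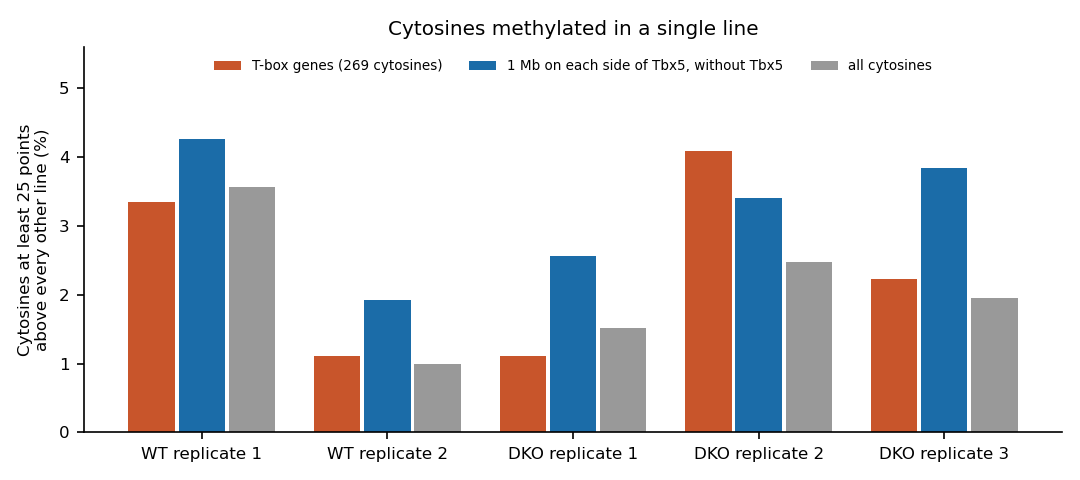
Share of cytosines that were at least 25 percentage points above every other line, for each of the 5 lines. Bars give the 269 T-box cytosines, the 469 cytosines within 1 Mb of Tbx5 and all cytosines, and for DKO replicate 3 they stand at 2.23%, 3.84% and 1.95%. The T-box bar of DKO replicate 3 includes chr5:119796569 of the Tbx5 promoter window, which was chosen for its level.

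Tbx4, the hindlimb counterpart of Tbx5, had a promoter window that was methylated in all 5 lines. Over 15 cytosines at the start of the gene (chr11:85886367-85916097, plus strand) the level was 14.3% and 14.8% in the WT lines, and the DKO lines had 16.4%, 18.6% and 8.48%. Round spermatids were at 0.222% (95% Wilson interval 0.148% to 0.334%), below all lines. The difference of -14.3 points was short of the rule of size used for the unreplicated library, which asks for a level outside the range of the lines and at least 25 points from their mean. The 500 bp tile chr11:85885501-85886000, with 5 cytosines before the gene, passed that rule. It stood at 8.13% and 34.5% in the WT lines, 58.9%, 55.2% and 37.0% in the DKO lines, and 1.83% in round spermatids. It was the single T-box tile of 37 in which round spermatids were lower (2.70%, against 0.437% of all tiles), while they were higher in 3 (8.11%, against 25% of all tiles). The DKO lines were also higher than the WT lines there without overlap, by 29.1 points, and the tile did not pass the edgeR test described below. Such a tile was 1 of 6 among the 37 T-box tiles (16.2%, against 9.04% of all tiles). The next tiles of the window, from chr11:85886001 to chr11:85887000, went the other way with overlap, at -2.31 and -9.35 points (DKO minus WT). Over the whole window that difference was -0.091 points. The start that the RefSeq promoter table lists for Tbx4 lies inside the gene, and that entry held no listed cytosine. The flank above Tbx4 (3 cytosines) was methylated in WT replicate 1 at 41.0%, against 6.83% in WT replicate 2, 0%, 6.88% and 0% in the DKO lines, and 1.34% in round spermatids.

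Tbx2, a repressor active in heart, limb and lung, lies 44.4 kb from Tbx4 at chr11:85832615-85841948. Its promoter window (20 cytosines) did not exceed 0.277% in any library. The noncoding record 2610027K06Rik shares 15 of the Tbx2 cytosines. The body (37 cytosines) stood at 2.40% and 0.162% in the WT lines, 3.48%, 4.02% and 7.03% in the DKO lines, and 1.21% in round spermatids. The DKO lines were higher without overlap, by 3.56 points (two-sided exact permutation p = 0.1, the smallest that 10 splits of 2 against 3 lines can give). Much of the DKO level lay in the tile chr11:85833501-85834000, at 1.62% and 0.023% in the WT lines against 7.17%, 5.95% and 16.2% in the DKO lines. That tile held the one CpG among the members whose cytosines were both measured, and they disagreed. At chr11:85833757 DKO replicate 1 was at 26.5% and DKO replicate 3 at 0%, while at chr11:85833758, on the other strand, DKO replicate 1 was at 0.2% and DKO replicate 3 at 29.6%. Over all 877 CpGs measured on both strands in the 6 libraries, 69.3% to 78.9% of those with at least 1 strand at 25% or more in a line differed by 25 points or more between strands, and 30.2% did in round spermatids.

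The flank above Tbx2 (5 cytosines) also differed among the DKO lines. Its level was 13.9% and 0.121% in the WT lines, 24.9%, 48.6% and 19.1% in the DKO lines, and 0% in round spermatids, where 0 of 1645 reads allow up to 0.182%. The DKO lines were higher without overlap (23.9 points, two-sided exact permutation p = 0.2). DKO replicate 3 was methylated at the first of the 5 cytosines, at 88.2%, and at 0% at the next 4, while DKO replicate 2 ranged from 0% to 84.1% over those 4.

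**Figure D5:**
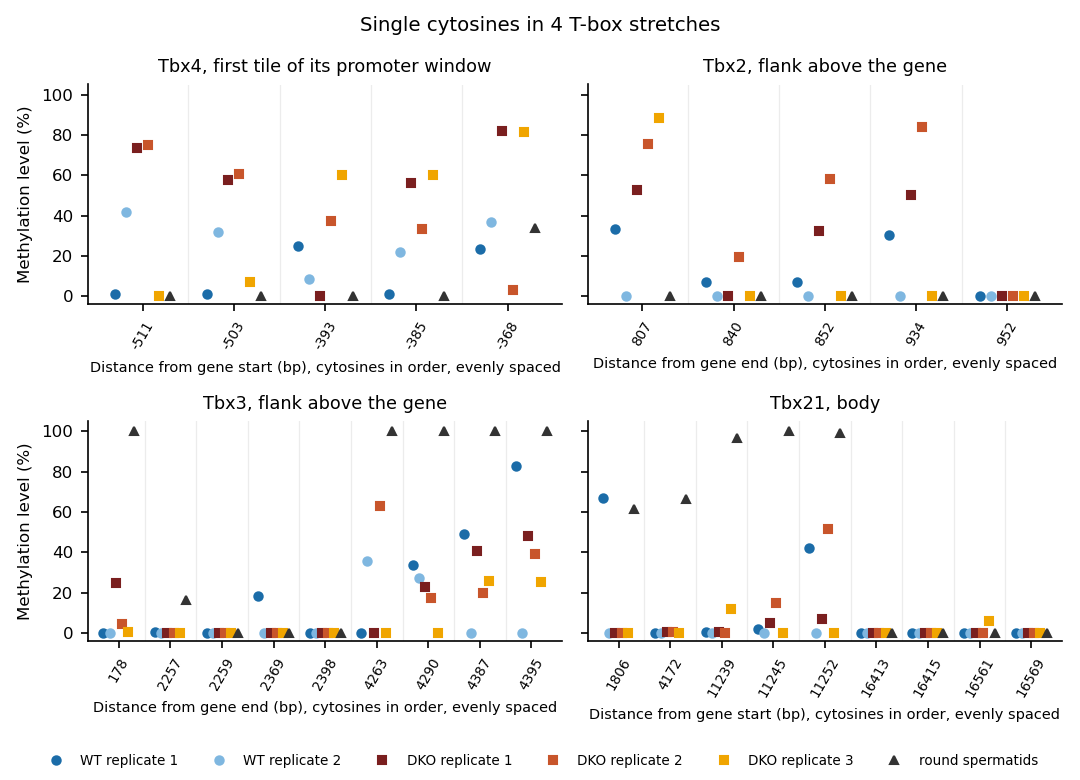
Methylation level in percent of single cytosines in 4 stretches, for each library. Cytosines are in order and evenly spaced, with their distance in bp from the gene start or end below them. In the tile before Tbx4 and in the flank above Tbx2, the lines differ from each other at neighbouring cytosines, while in the flank above Tbx3 and in the Tbx21 body round spermatids reach 100%.

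Round spermatids stood above the lines in few T-box regions. By the rule of 25 points, they were higher in 1 of 17 regions (5.88%, against 19.9% of all regions) and lower in 0 (against 0.172%). Of the 269 cytosines, 19 were higher (7.06%, against 21.2% of all cytosines) and 2 lower (0.743%, against 0.333%). The region was the flank above Tbx3, with 9 cytosines, 8 of which lie in the noncoding record Tbx3os2. It stood at 19.7% and 2.02% in the WT lines, at 23.4%, 15.05% and 13.5% in the DKO lines, and at 56.8% in round spermatids (95% Wilson interval 54.1% to 59.4%), 42.0 points above the mean of the lines (14.7% ± 8.12, SD, n = 5). Within it, 5 cytosines were at 100% in round spermatids and 4 at 16.6% or less. Counted with a flank of 10 kb, the region no longer passed the rule. In the Tbx3 body round spermatids were at 3.48% (95% Wilson interval 3.203% to 3.77%) and the lines near 0%, which rested on a few cytosines such as chr5:119673337, at 89.3% there and at 0% in every line.

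Tbx21, also called T-bet, is the master regulator of T helper 1 cells and belongs to the Tbr1 subfamily. It had no measured cytosine in its promoter window. Its body (9 cytosines) stood at 4.06% and 0.013% in the WT lines, 1.13%, 3.25% and 0.445% in the DKO lines, and 9.93% in round spermatids (95% Wilson interval 9.32% to 10.6%). That summed level hid a split between cytosines. In the tile chr11:97109001-97109500, round spermatids were at 98.6% against 6.03% ± 4.87 (SD, n = 5) in the lines, while the 4 cytosines nearest the gene's 5′ end were at or near 0% in them. The cytosine in the flank above Tbx21, at chr11:97120227, was at 100% in round spermatids, 51.3% in DKO replicate 2, 12.5% in WT replicate 1 and 0% in the other lines. Averaged per cytosine instead of per read, the Tbx21 body also passed the rule of 25 points.

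Among the Tbx1 subfamily, Tbx1, the main gene of DiGeorge syndrome and a regulator of the pharyngeal arches, had an unmethylated promoter window (4 cytosines, at most 0.131% in any library). Its body (29 cytosines) stood at 3.14% and 0.023% in the WT lines, 4.52%, 1.62% and 0.019% in the DKO lines, and 7.51% in round spermatids (95% Wilson interval 7.10% to 7.95%). These levels came mainly from the tile chr16:18585501-18586000, at 20.6% and 0.074% in the WT lines, 30.4%, 16.2% and 0.094% in the DKO lines, and 57.0% in round spermatids. WT replicate 2 and DKO replicate 3, which share the line name AGH-2, were the pair near 0% there. Whether the shared name bears on this was not tested.

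Tbx15, a regulator of skeletal and adipose development, had no measured cytosine in its promoter window, and its body (10 cytosines over chr3:99240848-99354260) stood at 1.49% and 1.37% in the WT lines, 0.118%, 0.064% and 0.009% in the DKO lines, and 1.12% in round spermatids. The DKO lines were lower without overlap, by 1.37 points (mean of DKO minus mean of WT -1.37, two-sided exact permutation p = 0.1). The 2 WT levels came from different cytosines. One cytosine, chr3:99349359, was at 88.0% in WT replicate 1 and 100% in round spermatids and at most 5.88% in the other lines, with 0% in WT replicate 2. Another, chr3:99241431, was at 7.18% over 1254 reads in WT replicate 2 and at 0% in the other libraries. Tbx18, which acts in the epicardium and sinus node, and Tbx20, a cardiac factor, had 1 member each. The Tbx18 cytosine at chr9:87733679 was at 100% in WT replicate 2 over 10 reads and at 20% in DKO replicate 1, and at 0% elsewhere. The Tbx20 cytosine at chr9:24770082 was at 12% in WT replicate 1 and below 1% in the other libraries.

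Tbx6 directs paraxial mesoderm towards muscle and away from neural fate, and lies at chr7:126781483-126785548 on the plus strand. Its promoter window also differed from line to line. The level over 4 cytosines was 25.01% and 0.076% in the WT lines, 28.7%, 10.7% and 16.1% in the DKO lines, and 0% in round spermatids, where 0 of 3299 reads allow up to 0.091%. As in Tbx5, single cytosines carried these levels. The first, at chr7:126781195, was at 100% in WT replicate 1 and DKO replicate 1, 17.9% in DKO replicate 2 and at most 0.305% elsewhere. The next, 6 bp on, was at 0% in all 6 libraries. The third, at chr7:126781211, was at 57.5% in DKO replicate 3, 26.3% in DKO replicate 2 and 0% elsewhere. The fourth, at chr7:126781244, was at 50.2% in DKO replicate 1 and 0% elsewhere, with at least 277 reads in each library. It lies 239 bp before the gene start, and it was the one member inside a RefSeq promoter entry (GRCm38.p6, the assembly of mm10). The 250 bases before the start, chr7:126781233-126781482 on the plus strand, are shown to place that CpG, which is in capitals, close to the 5′ end of the stretch. The whole entry of 300 bases holds 7 CpGs.
Tbx6: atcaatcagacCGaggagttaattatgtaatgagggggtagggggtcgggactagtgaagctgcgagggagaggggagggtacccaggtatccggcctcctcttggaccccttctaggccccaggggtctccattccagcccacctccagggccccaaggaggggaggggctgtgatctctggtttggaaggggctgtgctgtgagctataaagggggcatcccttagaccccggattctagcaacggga
Of the 10 genes, 6 had an entry in the RefSeq promoter table. The MspI site CCGG, which reads alike on both strands, was found in 5 of their 7 entries, against 52.8% of all 32851 entries of 300 bases. The flank below Tbx6 (12 cytosines, within Ypel3) did not exceed 0.034% in any library.

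Neighbouring cytosines disagreed within a line over the T-box genes as a set, with Tbx5 included. Of 101 pairs of T-box cytosines at most 10 bp apart, 12, 3, 5, 6 and 5 differed by 25 points or more in the WT and DKO lines, and 1 did in round spermatids. Among pairs with at least 1 cytosine at 25% or more, that was 100%, 75.0%, 62.5%, 54.5% and 62.5% in the lines and 20% in round spermatids. The same shares over all cytosines were 52.7%, 61.6%, 62.2%, 50.8% and 64.6% in the lines and 22.4% in round spermatids. The Tbx5 cytosines at 0%, 42.4% and 100% in DKO replicate 3 made up 2 of its 5 pairs. A further pair of the 5 was also in Tbx5, chr5:119866768 at 41.1% and chr5:119866773 at 0%.

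No T-box window or tile passed the test of DKO against WT lines across the genome. The edgeR quasi-likelihood test with Benjamini-Hochberg adjustment called 0 of 9034 promoter windows and 0 of 25575 tiles (0% each), and at an unadjusted p under 0.05 it held 245 windows (2.71%) and 566 tiles (2.21%). By limma these counts were 0 and 0, with 409 and 883 at the unadjusted threshold. Of the 5 T-box windows other than that of Tbx5, 0 had an unadjusted p under 0.05, and the lowest adjusted p was 0.974. The Tbx5 window, chosen for its level in DKO replicate 3, is given as a description, with a DKO mean of 21.1% ± 32.1 (SD, n = 3) and a WT mean of 6.498% ± 9.19 (SD, n = 2). Its difference of 14.7 points was -3.85 points without DKO replicate 3. Of 35 tested T-box tiles, 2 had an unadjusted p under 0.05, in the bodies of Tbx2 and Tbx3, and the lowest adjusted p was 0.9998. Levels of DKO lines lay above those of WT lines without overlap in 3 of 17 regions (17.6%, against 10.6% of all regions), the Tbx2 body, the flank above Tbx2 and the Tbx3 body, and below them in 1 (5.88%, against 5.24%), the Tbx15 body. In the Tbx3 body the difference was 0.023 points. None of the 16 exact permutation tests, 1 for each region other than the Tbx5 promoter window, can reach 0.05, and 2 reached the smallest p of 0.1. When a line was left out, the number of regions without overlap rose from 4, with fewer lines left to overlap. The share of all regions was not counted for those settings, so nothing is read from the rise.

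T-box genes outside the 10 members and genes that act with them were low in the lines. These lists, and the cell type lists below, were chosen with earlier results in view. Of 7 other T-box genes, the promoter windows of 2 were measured. T, the founding member of the family and a mesoderm factor, was at most 0.167% in any library, and Eomes, an endoderm and trophoblast factor, was at 2.21% in DKO replicate 1 and below 0.05% elsewhere. Of 20 heart and limb partners and targets, 10 were measured and 0 were called (background 0%), with a median round spermatid difference of -0.238 points. The list averaged 0.732% ± 0.475 over the lines (SD, n = 5), with 0.184% in DKO replicate 3, and 0.042% in round spermatids. Pitx1, a hindlimb regulator upstream of Tbx4, was the most methylated, at 6.13% and 3.61% in the WT lines, 2.27%, 8.29% and 0.031% in the DKO lines, and 0.077% in round spermatids. The 5 T-box promoter windows other than that of Tbx5 averaged 6.17% ± 2.40 over the lines (SD, n = 5) and 0.081% in round spermatids. Their median round spermatid difference was -0.073 points, against -0.007 points over all 9549 windows.

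Promoter windows of cell type markers were examined because the lines grew on feeders. Of 10 fibroblast genes 4 were measured, with list means of 5.59% and 0.824% in the WT lines, 13.2%, 1.83% and 0.104% in the DKO lines, and 0.030% in round spermatids. DKO replicate 3 was the lowest line, and Pdgfrb at 52.2% in DKO replicate 1 set the highest value. Of 10 pluripotency genes 2 were measured, Utf1 and Zfp42, both at most 0.111% in the lines. Of 8 germ cell genes 6 were measured, averaging 9.92% ± 3.36 over the lines (SD, n = 5) and 0.431% in round spermatids. DKO replicate 3 was the highest line in that list, at 14.1%, and in the testis somatic list, at 5.81%. Among the germ cell genes it was highest at Taf7l (40.3%) and Asz1 (26.7%) alone, with WT replicate 1 or 2 highest at the others. Its testis somatic mean rested on Clu at 21.9%, with the other measured genes at most 1.26%. In the spermatid list DKO replicate 3 was at 10.7%, below WT replicate 1 at 28.8%. Of 8 spermatid genes 3 were measured (12.3% ± 10.05 over the lines, SD, n = 5, and 33.3% in round spermatids), and of 6 testis somatic genes 4 (4.16% ± 1.37, SD, n = 5, and 25.01%). In round spermatids 1 gene carried each of these means, Tssk1 at 99.9% with Tnp1 at 0% and Spata3 at 0.079%, and Clu at 100% with Amh, Sox9 and Wt1 at most 0.016%. Their part in the T-box levels was not tested.

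The promoter windows whose levels over the 6 libraries lay nearest to those of Tbx5 were Krt81, Gm32026, Adamts5, Lrrc14b and Gm10505, with root mean square differences of 8.63, 9.22, 9.43, 9.43 and 9.51 points. Krt81, a hair keratin gene, was the closest, at 23.9% and 0.047% in the WT lines, 7.89%, 2.88% and 40.4% in the DKO lines, and 0.056% in round spermatids. DKO replicate 3 lay between 35.5% and 60.1% in the 5 windows, and its place as the highest line in them follows from how they were chosen. They lie on chromosomes 13, 15, 16, 17 and 19, away from Tbx5 on chromosome 5.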

How the data were processed

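DNA methylation was measured by RRBS in 2 WT and 3 DKO AG-haESC lines and 1 round spermatid library. Per the labels' protocols, MspI fragments were ligated to methylated adapters, selected by size on a gel, treated with bisulfite and amplified. Per the submitters' processing notes, Bismark 0.12.2 was a tool used and mm10 the build. For trimming, duplicate removal and strand handling, the tools and settings were not given in the sources used here. The deposited files list, for each position, the counts of methylated and unmethylated reads, and the authors' level as a fraction. The counts were used here. All 116301 listed positions that fell in RefSeq promoter sequences were cytosines of a CpG, 50.1% on the plus strand.

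Positions with at least 10 reads in all 6 libraries on chromosomes 1 to 19 and X were kept. Genes came from a RefSeq table (GRCm38.p6, the mm10 assembly) without exons, so exon, intron and UTR were not assigned. Regions and 500 bp tiles needed at least 3 positions. The edgeR 4.0.16 quasi-likelihood test (R 4.3.3) compared the DKO with the WT lines on methylated and unmethylated counts, with library, methylation and group by methylation terms, a common dispersion and Benjamini-Hochberg adjustment over all windows or tiles (threshold 0.05), and with limma 3.58.1 as an alternative. The script was tested on simulated data with a spread among lines set in advance, which does not measure its power in these data. For single regions a two-sided exact permutation test over lines was used, and for round spermatids the rule of size. A single line was set apart where it exceeded every other line by 25 points. Intervals and limits (3 reads for a count of 0) cover counting error only: PCR copies carry no molecular identifiers, so reads are not independent molecules, and a read counts at each cytosine it covers.

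The members, the gene lists and the tests were chosen with earlier results of these data known. Named genes were the 10 members, other T-box genes, heart and limb partners, genes within 1 Mb of Tbx5 with a measured region, and the 5 windows nearest to Tbx5 in level. Alternatives changed the minimum reads, minimum positions, weighting, window widths, test, line-name block and the lines included. One gene of the list of heart and limb partners is included in the list's counts but is not reported singly here.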

Additional observations from a re-analysis of the deposited data

Results flagged for a closer look

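The flank above Tbx4 was at 41.0% in WT replicate 1, and the next line was DKO replicate 2 at 6.88%. By Dixon's criterion 1 of the 5 lines lay apart there, in 1 of the 16 T-box regions other than the Tbx5 promoter window, and chance alone meets the criterion in about 5% of groups. The Tbx5 promoter window was at 58.2% in DKO replicate 3, and the next line was WT replicate 1 at 13.0%. That window was chosen for this value, so its distance is a description and no test.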

How the results depend on the processing

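The adjusted edgeR test called 0 promoter windows and 0 tiles under every alternative except the replicate block. Titles share the line names OG3 and AGH-2 between WT and DKO lines, and with these names as a replicate block it called 17 windows and 3 tiles, of which 0 were T-box windows or tiles. Deviations of same-named lines from their group means correlated at 0.081 and 0.048 across cytosines, and those of the other pairs at -0.081 to 0.032. With 2 WT lines the WT deviations mirror each other, so these values cannot decide whether the names mark pairs. The main test did not take them as pairs. The cause of the calls under the block was not tested. Round spermatids passed the rule of size in 1 T-box region, in 2 with the mean of position levels, with a 10 kb flank or with a promoter window from 2 kb outside to 1 kb inside, in 3 with both widths, and in 1 to 2 when a line was left out. With the 10 kb flank the region above Tbx3 was lost, and without WT replicate 2 the flank above Tbx2 was added. DKO and WT lines did not overlap in 4 regions, and in 5 to 9 when a line was left out, which leaves fewer samples to overlap. The 4 were among them each time. The distance of DKO replicate 3 at the Tbx5 promoter window, 53.6 points, was 29.5 points with the mean of position levels, 22.8 points without the cytosine at 100%, and 52.1 to 56.4 points when another line was left out. At a minimum of 20 reads that window had too few cytosines, since DKO replicate 1 had at most 16 reads there. In the Tbx5 body the distance was -3.49 points, and -4.24 to -2.74 points when a line was left out. Of 338 other values, 310 moved by less than the SD over the 5 lines of both groups and 28 moved by more. That SD is wide where 1 line lies apart. At the Tbx5 promoter window it was 24.5 points with DKO replicate 3 included, so the change of sign there counts among the 310. The sign changed in 18 of 152 differences between DKO and WT lines, 12 of them when a line was left out, and in 1 of 186 between round spermatids and lines. None of these was a called value. They include the Tbx5 promoter window (14.7 to -3.85 points without DKO replicate 3), the Tbx6 promoter window (5.96 to -6.51 without WT replicate 2), and the Tbx4 body (-1.70 to 0.555) and Tbx2 promoter window (-0.106 to 0.012) without WT replicate 1. RRBS limits each promoter window to the cytosines near MspI sites, 4 in Tbx5.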
